A study of Mus musculus with 40 samples.

Results

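Toll-like receptors are the germline-encoded sensors of microbial lipids, proteins and nucleic acids, and Cd14 hands lipopolysaccharide to them. The genes described here are the 9 receptors Tlr1, Tlr2, Tlr3, Tlr4, Tlr5, Tlr6, Tlr7, Tlr9 and Tlr13 together with Cd14. They were taken by name, as the probes whose gene name on the array equals one of the 10 symbols, which gave 12 probes of the 55589 with a value on every array (36362 gene names in all). Tlr7 had 3 probes and every other gene had a single probe. In mouse brain the Toll-like receptors separated into genes that were higher at 29 than at 2 months (Tlr2, Tlr4 and Cd14 in both regions, Tlr1 in the cerebellum), genes that were not called (Tlr3, Tlr9, and Tlr13, whose rise was under the fold limit), genes that were too dim or read differently by their probes (Tlr6, Tlr7), and Tlr5, which was not well above background on any array.

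Total RNA of cortex and cerebellum from C57Bl/6 mice was hybridised to 40 single-colour (Cy3) Agilent arrays, in 10 groups of 4. Both regions came from the same 5 kinds of mice. The wild-type kinds were young (2 months) or aged (29 months) animals fed a normal diet of 36 mg α-tocopherol per kg, and aged animals fed a diet deficient in α-tocopherol. The Ttpa-/- kinds were both aged, fed either that deficient diet or a supplemented one of 600 mg per kg. The Ttpa product, α-tocopherol transfer protein, retains vitamin E in the body, and its knockout is used as a model of chronic oxidative stress in the brain. There were no young Ttpa-/- mice and no Ttpa-/- mice on the normal diet, so genotype was compared at 29 months only and, on a shared diet, only on the deficient one. The study used 4 mice for each group. Its methods do not state whether cortex and cerebellum came from the same mice, and the main fit took all arrays as independent. The p-values of the main fit rest on the spread between arrays within groups, pooled over all 40 arrays. Where a fit of the compared groups alone or the methods' t-test is named, only the compared arrays were used.

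The Toll-like receptors work as dimers. Tlr2 pairs with Tlr1 or Tlr6 to bind lipopeptides, Tlr4 with its partner Md-2 binds lipopolysaccharide delivered by Cd14, and Tlr5 binds flagellin, all at the cell surface. Tlr3, Tlr7, Tlr9 and Tlr13 bind nucleic acids inside endosomes: double-stranded RNA, single-stranded RNA, unmethylated CpG DNA and bacterial ribosomal RNA, respectively. All except Tlr3, which signals through the adaptor Ticam1, use the adaptor Myd88 to activate NF-κB. In the healthy brain microglia carry most of these receptors, and astrocytes and endothelial cells carry some.

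The array reads each gene through a 60-base probe, and the probes of the lipopeptide pair Tlr2 and Tlr1 are shown because the largest changes of a member with age and with genotype were read there. They lie at chr3:83640344-83640403 and chr5:65316115-65316174 of mm9, both on the minus strand; the positions are those of the array files, and exon or UTR annotation was not looked up here.
Tlr2 probe: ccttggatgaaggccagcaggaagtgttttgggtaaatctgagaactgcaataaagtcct
Tlr1 probe: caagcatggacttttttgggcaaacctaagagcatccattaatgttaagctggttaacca

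The 250 bases before the transcription start are shown for Tlr2 and Tlr1, which were higher with age, for Tlr13, which had a smaller difference, and for Tlr9, whose levels at the 2 ages overlapped. They are from RefSeq on GRCm38.p6. Capitals mark an NF-κB motif (GGGNNTTCC) in Tlr2 and the core of the PU.1 motif (GAGGAA), bound by the myeloid factor Spi1, in the others. Both strands were searched.
Tlr2, chr3:83841609-83841858, minus strand: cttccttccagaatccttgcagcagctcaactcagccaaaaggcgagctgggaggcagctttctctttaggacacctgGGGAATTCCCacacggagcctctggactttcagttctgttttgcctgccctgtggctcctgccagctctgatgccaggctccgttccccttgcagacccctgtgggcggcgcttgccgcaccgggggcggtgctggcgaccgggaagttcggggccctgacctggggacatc
Tlr1, chr5:64933559-64933808, minus strand: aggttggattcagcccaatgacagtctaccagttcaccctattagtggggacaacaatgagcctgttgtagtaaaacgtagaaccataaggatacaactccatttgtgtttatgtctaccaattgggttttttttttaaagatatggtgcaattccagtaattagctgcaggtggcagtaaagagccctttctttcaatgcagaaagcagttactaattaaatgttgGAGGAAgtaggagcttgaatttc
Tlr13, chrX:106143025-106143274, plus strand: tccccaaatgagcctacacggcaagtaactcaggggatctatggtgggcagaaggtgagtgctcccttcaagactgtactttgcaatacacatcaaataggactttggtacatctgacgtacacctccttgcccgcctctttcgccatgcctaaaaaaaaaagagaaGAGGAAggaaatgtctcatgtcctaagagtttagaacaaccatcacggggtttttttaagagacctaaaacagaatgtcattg
Tlr9, chr9:106222348-106222597, plus strand: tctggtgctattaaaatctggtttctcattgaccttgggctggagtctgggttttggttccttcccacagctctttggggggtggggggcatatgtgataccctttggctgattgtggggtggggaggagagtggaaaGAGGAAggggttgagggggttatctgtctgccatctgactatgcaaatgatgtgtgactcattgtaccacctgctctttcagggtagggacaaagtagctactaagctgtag

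The NF-κB match of Tlr2 began 172 bases before the start, and 4.98% of the 32851 mouse promoters of this length held that motif. The PU.1 core lay 23 bases before the start in Tlr1, 83 in Tlr13 and 112 in Tlr9, and 23.3% of promoters held it. Among the 9 promoters read for 7 of the 10 genes, these were the only matches to either motif. The promoters of Tlr4, Tlr7 and Cd14 were not read. The AP-1 motif TGACTCA was found in Tlr9, and 4.46% of all promoters held it. These matches describe letters in the window. Among the promoters read, genes with and without a change at 29 months held the PU.1 core, while Tlr2 alone held the NF-κB motif and Tlr9 alone the AP-1 motif. Tlr4 and Cd14, which were higher with age in both regions, are missing from this description.

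On each array the 75th percentile of the signal was 365 to 925 and 51.4% to 61.4% of probes were well above background, while arrays of the same group correlated at 0.973 to 0.993 across probes. Levels below are the log2 of a probe's signal over the 75th percentile of its array, so 0 is the level of a probe at that percentile and levels of different probes are not compared. Gabra6, a defining gene of cerebellar granule cells, matched the labels of the regions and was well above background on 20 of 20 cerebellum and 0 of 20 cortex arrays. Ttpa itself was well above background on 12 of 12 wild-type and 1 of 8 Ttpa-/- cerebellum arrays; in the cortex it was near background in wild-type mice (1 of 12) and gives no check there. The arrays lay on 5 slides of 8, each group on a single slide. Young and aged wild-type cortex shared a slide, as did wild-type cerebellum on the normal and deficient diets and Ttpa-/- cerebellum on both diets; for every other comparison slide and condition cannot be told apart.

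Aging was examined first, by comparing wild-type mice of 29 and 2 months on the normal diet. In the cortex Tlr2, Tlr4 and Cd14 were called higher in aged mice, and in the cerebellum Tlr1, Tlr2, Tlr4 and Cd14. A call required a Benjamini-Hochberg adjusted p under 0.05 in limma and a fold change over 1.5, and a gene was tested when every array of at least 1 compared group (4 of 4) had its brightest probe well above background. That gave 3 of 7 tested genes higher in the cortex, where 1.59% of all tested probes were called higher, and 4 of 8 in the cerebellum, against 3.99%; 0 genes were lower in either region. The median difference of the tested genes was 0.48 in the cortex and 0.92 in the cerebellum, while that of all tested probes was -0.03 and -0.01. Tlr4 in the cortex, and Tlr1 and Tlr3 in the cerebellum, were tested only because the aged arrays passed the filter. Tlr1, Tlr5 and Tlr6 were too dim for a test in the cortex, and Tlr5 and Tlr6 in the cerebellum. Young and aged arrays did not overlap for 4 of 7 tested genes in the cortex, against 14% of all tested probes. In the cerebellum they did not overlap for 5 of 8, against 19.1%.

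Tlr2, the shared subunit of the lipopeptide receptors, had the largest rise of a called gene in both regions. Its level in the young cortex was -2.81, -2.93, -2.82 and -2.78, and in the aged cortex -1.34, -0.92, -0.79 and -2.01. The 4 young arrays lay within a narrow band, the aged ones were spread and all of them lay above it. The difference was 1.57 (SE 0.22, adjusted p = 2.15e-05), a 2.96-fold rise. In the cerebellum Tlr2 lay at -3.03, -3.33, -2.83 and -2.55 in young and at -0.60, -0.68, -0.45 and -0.32 in aged mice. The groups were well apart, by 2.42 (SE 0.22, adjusted p = 1.21e-09) or 5.36-fold. In bulk tissue such as this, more cells of a type and more RNA per cell cannot be told apart. By the methods' t-test with Benjamini-Hochberg adjustment, Tlr2 in the cortex had an adjusted p of 0.0525.

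Tlr1 and Tlr6, the alternative partners of Tlr2, were dim probes. In the cerebellum Tlr1 lay at -6.70, -6.10, -7.04 and -5.23 in young mice and at -4.54, -4.33, -3.83 and -4.58 in aged mice. No young array and every aged array was well above background, so the rise is a bound of at least 1.38-fold, taken against the lowest signal well above background. The fit gave a difference of 1.95 (SE 0.30, adjusted p = 2.01e-05), which was 0.46 after normexp background correction, under the fold limit. Here and below, that correction adds an offset of 50 to every signal, which shrinks the differences of dim probes. The mean processed signal of Tlr1 was 9.60 in young and 33.1 in aged cerebellum, so normexp cannot decide this call. In the cortex Tlr1 was well above background on 1 young and 2 aged arrays and was not tested. Tlr6 lay at -6.41, -6.75, -7.02 and -6.23 in the young cerebellum and at -4.45, -4.94, -4.81 and -4.73 in the aged cerebellum. These groups did not overlap either, but 0 of the young and 3 of the aged arrays were well above background, so Tlr6 was not tested and the bound is at least 1.03-fold. In the cortex the 8 arrays of Tlr6 overlapped, between -4.37 and -3.84.

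Tlr4, the lipopolysaccharide receptor, and its co-receptor Cd14 rose in both regions. Tlr4 lay at -4.23, -4.45, -4.25 and -4.51 in the young cortex, 2 of these arrays not being well above background, and at -3.42, -3.28, -2.69 and -3.34 in the aged cortex. All aged arrays were above all young ones, by 1.18 (SE 0.15, adjusted p = 5.74e-06), which is 2.26-fold. With normexp background correction the difference fell to 0.28 with an adjusted p of 0.0590. In the cerebellum Tlr4 was at -4.43, -3.69, -3.82 and -4.11 in young and at -2.39, -2.59, -2.67 and -2.42 in aged mice. The gap between the groups was over 1 log2 unit, and the difference was 1.50 (SE 0.15, adjusted p = 1.35e-08) or 2.82-fold.

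Cd14 was well above background on all 40 arrays. Its level was -1.68, -1.68, -1.93 and -1.26 in the young cortex and -0.91, -0.57, -0.62 and -1.03 in the aged cortex, a difference of 0.85 (SE 0.20, adjusted p = 0.00892) or 1.81-fold. In the cerebellum it was -2.46, -2.30, -2.20 and -2.30 in young and -1.07, -1.16, -1.05 and -0.81 in aged mice, a difference of 1.29 (SE 0.20, adjusted p = 2.25e-05) or 2.45-fold. The ages did not overlap in either region. The cortex call was lost with scaling to the median (adjusted p = 0.0932), in a fit of the compared groups alone (0.0610) and by the methods' t-test with adjustment (0.0746).

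**Figure D1:**
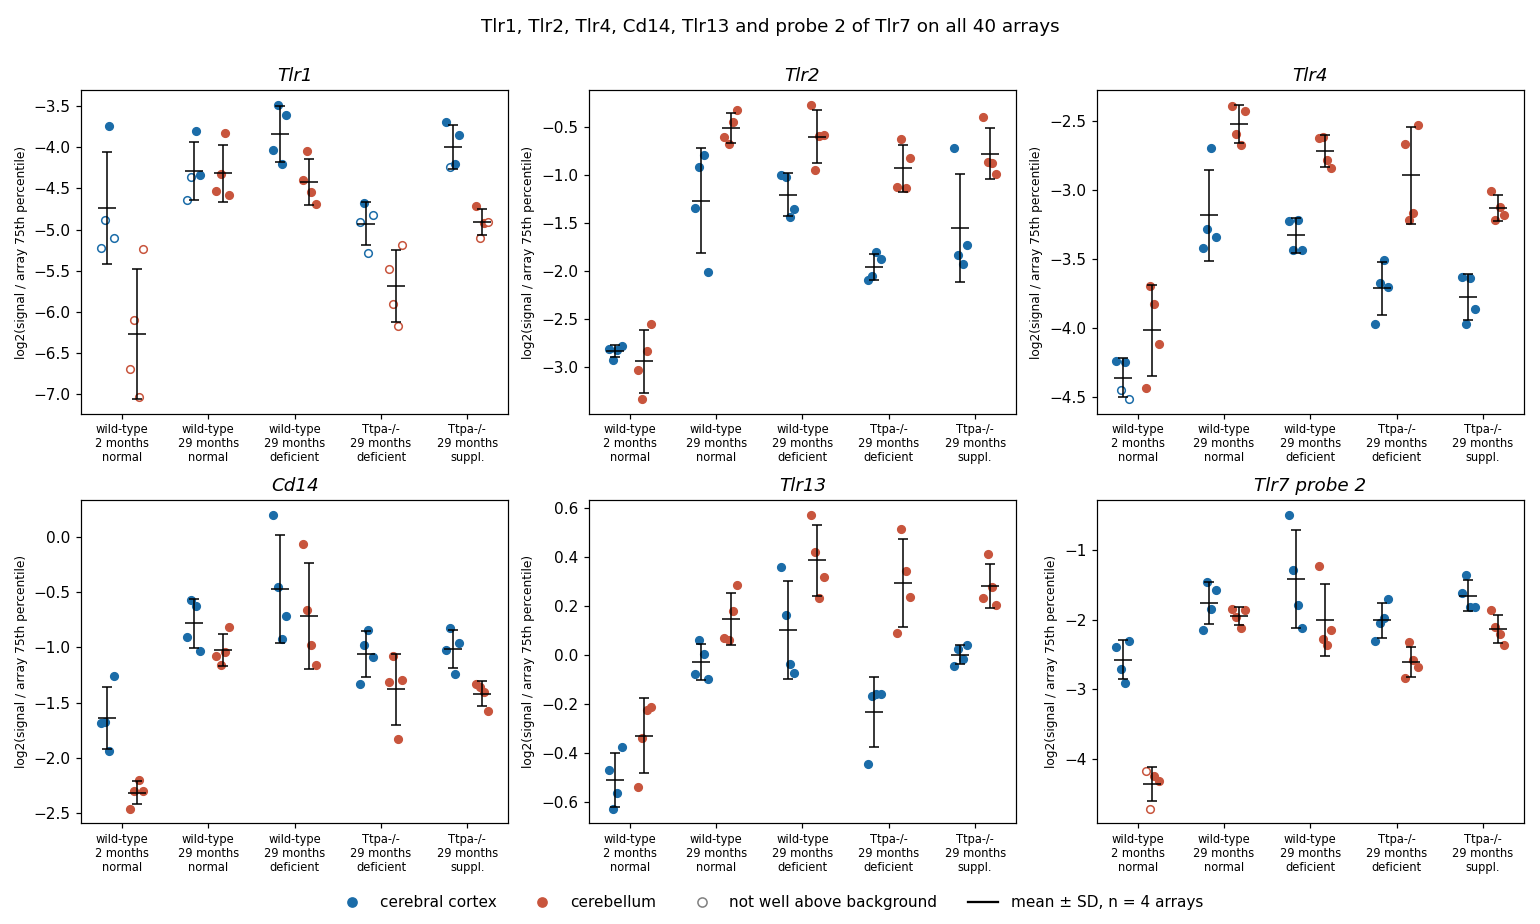
Level (log2 of the signal over the array's 75th percentile) of Tlr1, Tlr2, Tlr4, Cd14, Tlr13 and probe 2 of Tlr7 on each array, by genotype, age and diet, with cerebral cortex in blue and cerebellum in red. Open points were not well above background, and bars give the mean ± SD of 4 arrays. Tlr2 averaged -2.83 and -2.94 in the young cortex and cerebellum, below the means of all aged groups, which ran from -1.95 to -0.51.

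The endosomal receptors did not move together. Tlr13, the sensor of bacterial ribosomal RNA, lay at -0.47, -0.63, -0.57 and -0.38 in the young and at -0.08, 0.06, 0.00 and -0.10 in the aged cortex. The corresponding levels in the cerebellum were -0.54, -0.34, -0.22 and -0.21, and 0.07, 0.06, 0.18 and 0.28. In both regions the aged arrays were all above the young ones, with the same difference of 0.48 (SE 0.10, adjusted p = 0.00242 in the cortex and 0.00101 in the cerebellum). At 1.40- and 1.39-fold these differences were under the 1.5-fold limit, so Tlr13 was not called. With scaling to the median its adjusted p was 0.193 in the cortex and 0.125 in the cerebellum.

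Tlr9, the sensor of unmethylated CpG DNA, lay at 2.12, 2.19, 1.94 and 2.24 in the young and at 2.06, 2.11, 1.98 and 2.20 in the aged cortex. The differences with age were -0.03 (95% interval -0.25 to 0.18) in the cortex and -0.04 (-0.25 to 0.18) in the cerebellum. Tlr3, the sensor of double-stranded RNA, differed by -0.04 (-0.50 to 0.41) in the cortex. In the cerebellum it differed by 0.55 (0.09 to 1.0, adjusted p = 0.118), with 1 young array, at -4.59, not well above background. For both genes the young and aged arrays overlapped in both regions. The intervals of Tlr9 lay within 0.25 of 0, while that of Tlr3 in the cerebellum reached 1.0. Tlr5, the flagellin receptor, was below the background limit on 40 of 40 arrays, at -7.54 to -5.48, and no fold is given.

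The 3 probes of Tlr7, the sensor of single-stranded RNA, gave different answers. All are on the X chromosome, at chrX:163742863-163742922 (probe 1, the brightest), chrX:163743146-163743205 (probe 2) and chrX:163747214-163747273 (probe 3) of mm9. Probes 1 and 2 were well above background on 40 and 38 arrays, and probe 3 on 1, replicate 3 of the young cerebellum. Probe 1 lay at 0.95, 0.92, -0.53 and 1.03 in the young and at 0.48, 0.68, 0.10 and 1.08 in the aged cortex, overlapping, with a difference of -0.01 (95% interval -0.72 to 0.70). In the cerebellum its difference was 0.44 (-0.27 to 1.16, adjusted p = 0.521).

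Probe 2 of Tlr7 was higher with age in both regions. It lay at -2.39, -2.70, -2.91 and -2.30 in the young and at -2.15, -1.46, -1.85 and -1.57 in the aged cortex. The young cerebellum arrays were at -4.18, -4.72, -4.25 and -4.32 and the aged ones at -1.85, -1.96, -2.12 and -1.87. The ages did not overlap in either region, and the difference was 0.82 (SE 0.24, adjusted p = 0.0490) in the cortex and 2.42 (SE 0.24, adjusted p = 7.26e-09) in the cerebellum. The cortex call was lost on leaving out any of replicates 1, 2 and 3 of the young or replicates 2, 3 and 4 of the aged mice, with adjusted p between 0.0672 and 0.173. It was also lost with median scaling (0.244), quantile normalization (0.0703), normexp (0.44, adjusted p = 0.142), no filter on dim probes (0.0847), the compared groups alone (0.0955) and the methods' t-test with adjustment (0.110). Since probe 1 stands for the gene by the rule of the brightest probe, Tlr7 is not counted among the genes that rose, and it would be if any probe sufficed.

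**Figure D2:**
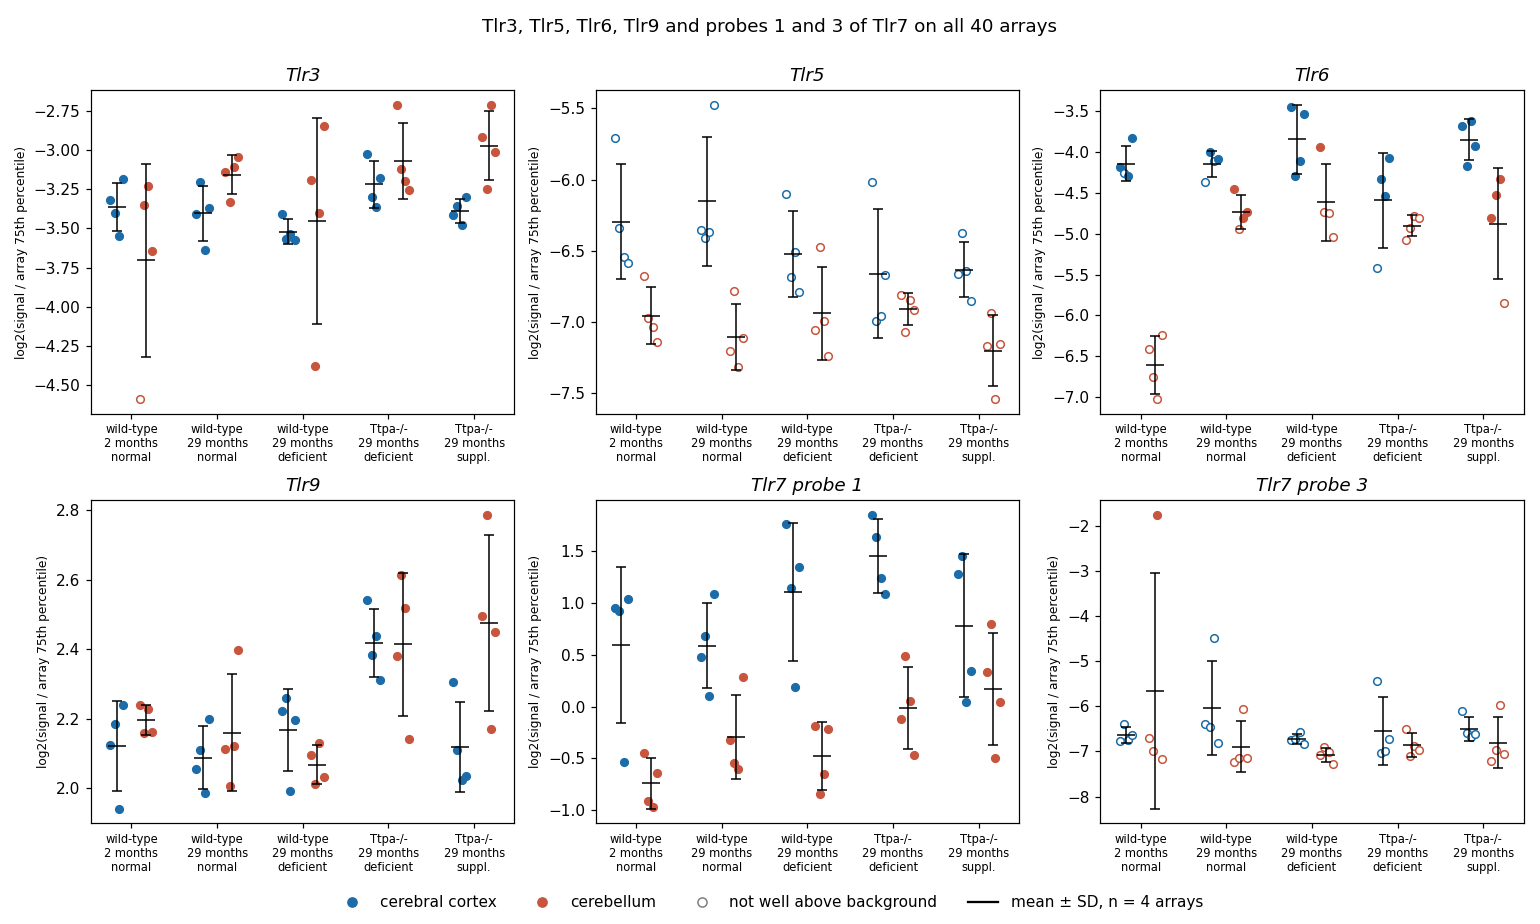
Level (log2 of the signal over the array's 75th percentile) of Tlr3, Tlr5, Tlr6, Tlr9 and probes 1 and 3 of Tlr7 on each array, by group, with the same symbols for region, background and mean ± SD (n = 4). Tlr9 spanned 0.41 between its lowest and highest group means, Tlr5 was open on all 40 arrays, and Tlr6 in the young cerebellum (mean -6.61) lay below every other group.

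The size of the rise was compared between regions as an interaction in the same model. 0 of 8 tested genes were called by their brightest probe, against 1.46% of all tested probes, and 2 (Tlr1 and Tlr2) by unadjusted limma p or by the methods' t-test without adjustment. The rise was larger in the cerebellum by 1.50 for Tlr1 (adjusted p = 0.0618), 0.86 for Tlr2 (0.216), 0.44 for Cd14 (0.621) and 0.32 for Tlr4 (0.657), none of which passed the test. Probe 2 of Tlr7 did pass, with a rise larger in the cerebellum by 1.60 (SE 0.34, adjusted p = 0.00814). That call was lost with median scaling (adjusted p = 0.0661) and with normexp (0.71, adjusted p = 0.118), and 2 of the 4 young cerebellum arrays were not well above background. In this probe the regions differed at 2 months, with a difference of -1.79 (cerebellum minus cortex, adjusted p = 1.24e-07), and at 29 months the difference of -0.19 had an adjusted p of 0.527.

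**Figure D3:**
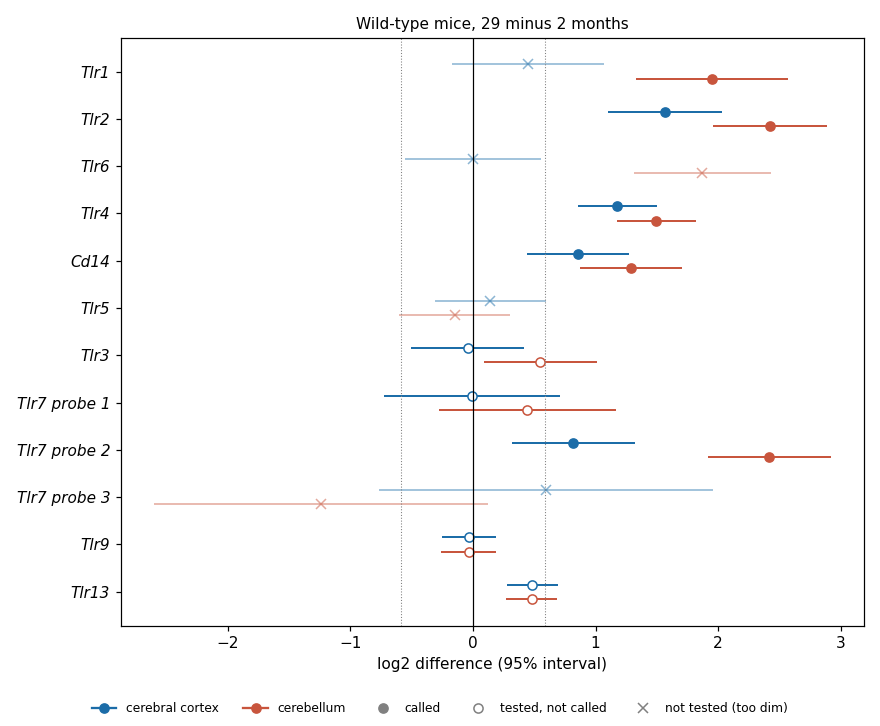
Difference in log2 level between wild-type mice of 29 and 2 months for each probe, with 95% intervals from the limma fit, in cortex (blue) and cerebellum (red). Filled points were called, open points were tested and not called, crosses were too dim for a test, and dotted lines mark 1.5-fold. Tlr2 stood at 1.57 and 2.42, and Tlr9 at -0.03 and -0.04.

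At 2 months the cerebellum was lower than the cortex in Tlr7 (probe 1, difference -1.33, adjusted p = 0.00137) and Cd14 (difference -0.68, adjusted p = 0.00405), 2 of 7 tested genes, where 19.1% of all tested probes were called lower and 38.4% in either direction. At 29 months Tlr2 (0.75, adjusted p = 0.00472) and Tlr4 (0.66, adjusted p = 0.000487) were higher in the cerebellum and Tlr7 (probe 1, -0.88, adjusted p = 0.0315) was lower, 2 and 1 of 8 tested genes against 17.8% and 15.8% of probes. For the regions such shares of calls are close to those over all probes. Leaving out replicate 4 of the young cortex took Cd14 to -0.55, under the fold limit. Likewise Tlr2 at 29 months was 0.51 without replicate 4 of the aged cortex, and Tlr4 was 0.58 without replicate 1 of it. With normexp they were 0.53 and 0.25, also under the limit. The call of Tlr7 at 29 months was lost on leaving out replicate 2 or 4 of the cortex or replicate 1, 2 or 3 of the cerebellum, with adjusted p between 0.0557 and 0.109, and with median scaling (0.0748).

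Markers of several cell types were also compared between the ages. In the cerebellum 8 of 12 microglial markers (P2ry12, Cx3cr1, Csf1r and others, all 12 well above background on every array) were called higher, with a median difference of 0.85, and 7 of 8 general myeloid markers, with a median of 1.82. The summed level of the 8 myeloid markers was 79.7 to 86.4 in young and 109 to 123 in aged cerebellum, and that of the 12 microglial markers was 157 to 182 and 169 to 200. In the cortex 0 of 12 microglial markers were called (median -0.06, sums 182 to 227 in young and 169 to 209 in aged mice), while 5 of 8 general myeloid markers (Cd68, Tyrobp, Fcer1g, Ctss and Cyba) were higher, with overlapping sums of 99.8 to 125 and 103 to 150. The summed astrocyte markers were 53.0 to 64.8 in young and 70.1 to 75.9 in aged cortex (1 of 6 called higher), and 89.1 to 99.1 and 104 to 134 in the cerebellum (2 of 6). Those of border macrophages were 1.61 to 1.91 and 1.94 to 2.44 in the cortex (2 of 4 tested called) and 1.08 to 1.40 and 2.25 to 2.99 in the cerebellum (2 of 5). Red cell markers had sums of 0.51 to 2.03 and 4.74 to 11.1 in the cortex (0 of 2 tested called) and of 3.21 to 7.66 and 12.1 to 84.7 in the cerebellum (2 of 4). These 3 sums did not overlap between the ages in either region. The part of these cell types in the rise of Tlr2, Tlr4 and Cd14 was not tested. Markers of monocytes and neutrophils had sums of 0.37 to 0.68 in the young and 1.76 to 2.11 in the aged cortex (2 of 3 tested called, S100a8 and S100a9), and of 1.51 to 4.87 and 5.20 to 52.9 in the cerebellum (0 of 4 called). Choroid plexus markers fell in the cerebellum (3 of 6 tested lower, with sums of 8.52 to 248 in young and 5.45 to 6.38 in aged mice), and replicate 1 of the young cerebellum was the highest.

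Around the receptors, the 73 genes of the pathway on the array were described by role. With age 10 of 53 tested genes were called higher in the cortex (1.59% of all tested probes) and 12 of 54 in the cerebellum (3.99%), and 0 lower in either. Their median difference was 0.06 in the cortex and 0.07 in the cerebellum. Of the 17 adaptors and kinases, 14 were tested (such as Myd88, Irak1 and Traf6) and 0 were called in either region, with medians of -0.00 and 0.01. Of the 15 inducible outputs 7 were tested, of which 5 were higher in the cortex and 6 in the cerebellum. The 8 untested outputs (Tnf, Il1a, Il1b, Il6, Il10, Il12b, Cxcl2 and Ifnb1) were too dim, and some tested ones passed the filter only through the aged arrays. The roles were not compared by a test.

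The outputs called in the cortex were chemokines, the secreted proteins that attract leukocytes, and in the cerebellum the enzyme Ptgs2 was called as well. In the cortex Ccl3 differed by 3.02 (SE 0.29, adjusted p = 2.54e-08), Ccl4 by 2.73, Ccl5 by 2.61 and Cxcl10 by 2.45, while Ccl2 was well above background on 0 of 4 young and 4 of 4 aged arrays and rose at least 2.93-fold. In the cerebellum Ccl3 rose at least 13.1-fold and Ccl4 at least 14-fold, both from 0 of 4 young arrays above background to 4 of 4. There Cxcl10 differed by 4.02 (SE 0.33, adjusted p = 9.44e-11), Ccl5 by 3.24 and Ccl2 by 2.58, and Ptgs2, the inducible cyclooxygenase, rose at least 1.95-fold. Ptgs2 had a difference of 0.41 (adjusted p = 0.260) with normexp, and Ccl2 in the cortex had an adjusted p of 0.0709 when limma was given only the compared groups. The receptors and their outputs were read from the same arrays and are not independent of each other.

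Among the other roles, Ly86, the partner of the receptor-like protein Cd180, rose by 0.65 in the cortex and 1.49 in the cerebellum. Irak3, an inhibitor that blocks the Irak kinases, rose by 1.43 and 1.44; with normexp these differences were 0.39 (adjusted p = 0.111) and 0.42, both under the fold limit, and the cortex call was also lost with the compared groups alone (0.0996). The Ly86 call in the cortex was lost with median scaling (adjusted p = 0.107) and with the compared groups alone (0.0979). The transcription factor Nfkb2 rose in the cortex by 0.62 (adjusted p = 0.0220), a call that was lost without replicate 1 or 3 of either age (adjusted p between 0.0634 and 0.125). In the cerebellum Unc93b1, which carries the endosomal receptors to their compartment, rose by 0.97, Sigirr, an inhibitory receptor, by 0.63, and the transcription factors Irf5 and Irf7 by 1.41 and 1.42. The ligands S100a8 and S100a9, which Tlr4 can bind and which neutrophils make in quantity, were higher in the cortex by 3.26 (adjusted p = 0.0115) and 3.29 (0.00892) and are also on the list of monocyte and neutrophil markers given above. With normexp S100a8 differed by 1.34 (adjusted p = 0.323). Without replicate 4 of the young cortex S100a9 had an adjusted p of 0.0510, and Irf7 had one of 0.0507 to 0.0856 without replicate 1 or 2 of the young or replicate 1 of the aged cerebellum. In a fit of the compared groups alone 6 pathway genes were called in the cortex.

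**Figure D4:**
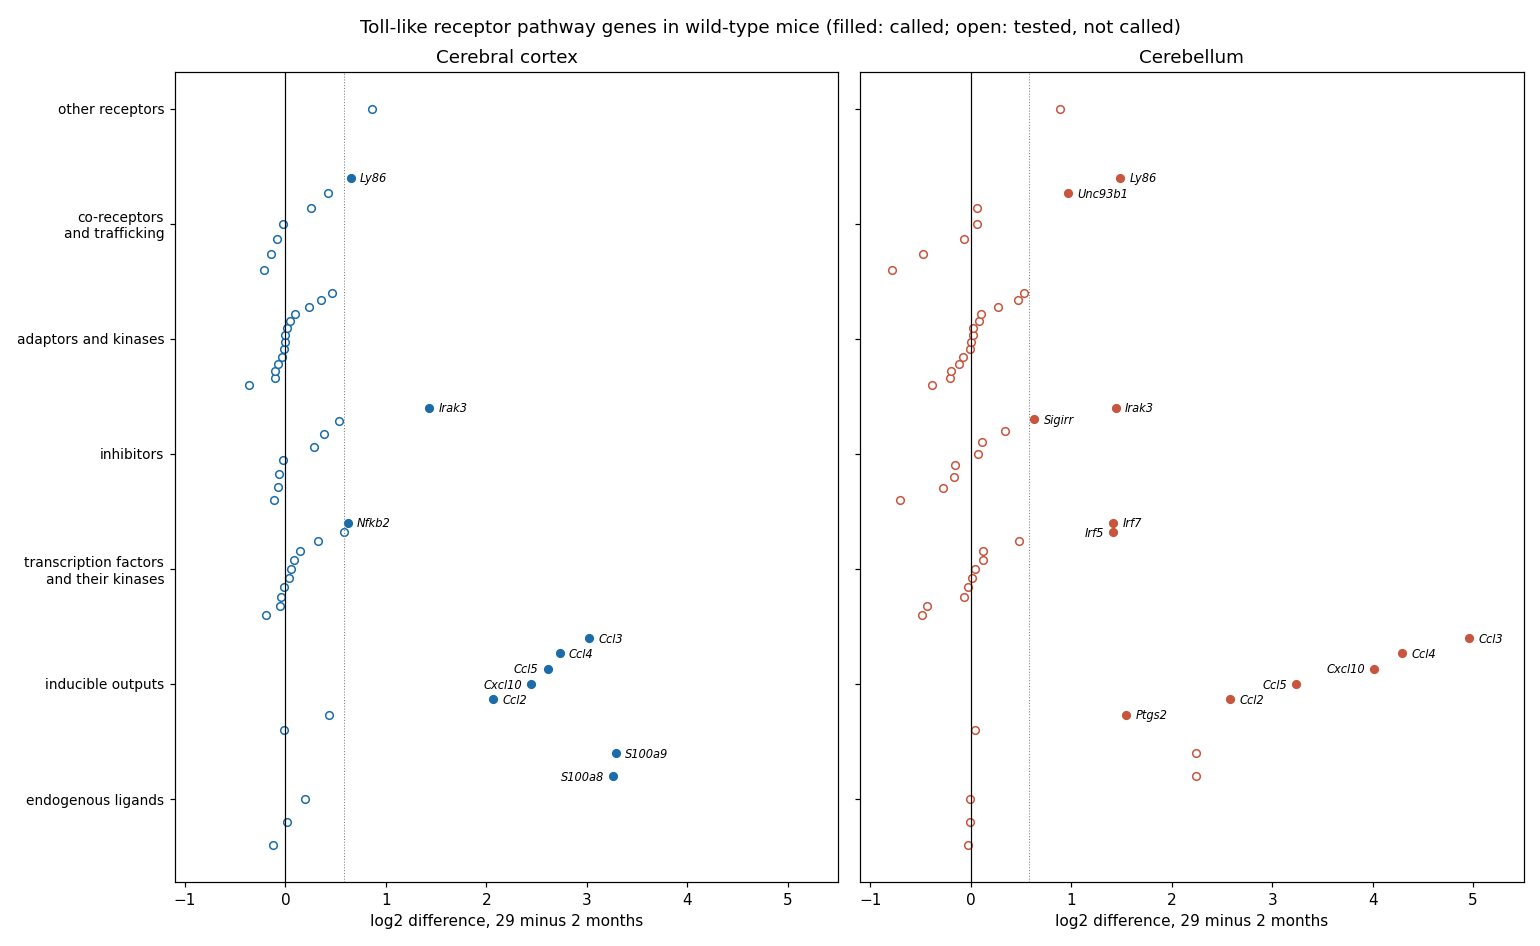
Difference in log2 level between wild-type mice of 29 and 2 months for the tested genes of the Toll-like receptor pathway, by role, in cortex and cerebellum. Each point is a gene at its fitted difference, called genes are filled and named, and the dotted line marks 1.5-fold. The 14 adaptors and kinases lie around 0 without a call, and Ccl3 is highest among the outputs, with 3.02 in the cortex.

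Oxidative stress was examined by setting aged Ttpa-/- mice on the deficient diet beside wild-type mice of the same age on the normal one. In this comparison each receptor that was called was lower. In the cortex 1 of 7 tested genes was called lower, Tlr2, where 1.60% of probes were, and in the cerebellum 1 of 8, Tlr1, against 1.79%; Tlr1 passed the filter only through the wild-type arrays. The median difference of the tested genes was -0.20 and -0.14, and that of all tested probes -0.02 in both regions. Probe 1 of Tlr7 was higher in the Ttpa-/- cortex and not called, at 1.45 ± 0.35 (mean ± SD, n = 4) against 0.59 ± 0.41 in wild-type mice. With array weights, or with the replicate number as a block, it was called higher.

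Tlr2 in the cortex lay at -2.09, -2.05, -1.80 and -1.87 in Ttpa-/- mice on the deficient diet, within and below the aged wild-type range given above, whose replicate 4 was at -2.01. The difference was -0.69 (SE 0.22, adjusted p = 0.0284), that is 1.61-fold lower. The call was lost on leaving out replicate 2 (-0.57, adjusted p = 0.110) or 3 (-0.53, 0.121) of the wild-type or replicate 1 (-0.64, 0.0885) or 2 (-0.66, 0.0686) of the Ttpa-/- mice, and under 5 other settings: median scaling (adjusted p = 0.146), normexp (-0.50), the compared groups alone (0.116) and the methods' t-test with or without adjustment. In the cerebellum the difference of Tlr2 was -0.42 (adjusted p = 0.228).

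Tlr1 in the cerebellum lay at -5.48, -5.91, -6.17 and -5.19 in Ttpa-/- mice on the deficient diet, none of them well above background, below all 4 aged wild-type arrays. The fitted difference was -1.37 (SE 0.30, adjusted p = 0.00276), and as a bound the gene was at least 1.34-fold lower. With normexp the difference was -0.38, under the fold limit, and the methods' t-test with adjustment gave 0.0548. Of the genes under the fold limit, Tlr4 in the cortex differed by -0.53 (adjusted p = 0.0161) and Tlr9 in the cortex by 0.33 (adjusted p = 0.0256), both without overlap. In this comparison 3 of 7 tested genes were without overlap in the cortex (Tlr4, Tlr9 and Tlr13, which was lower), against 23.4% of all tested probes. In the cerebellum 1 of 8 was, Tlr1, against 17%. The level of Tlr9 was 2.54, 2.38, 2.44 and 2.31 in these Ttpa-/- mice, above every aged wild-type array. Cd14 differed by -0.28 (adjusted p = 0.359) in the cortex and -0.36 (0.252) in the cerebellum.

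Compared on the same deficient diet, Ttpa-/- and wild-type mice differed in 3 of 9 tested genes in the cortex, all lower in Ttpa-/- mice (1.53% of probes were called lower), and in 2 of 8 in the cerebellum, both lower (1.92%). Tlr1 was lower in both regions. In the cortex it lay at -4.03, -3.49, -4.21 and -3.61 in wild-type and at -4.91, -4.68, -5.29 and -4.83 in Ttpa-/- mice, without overlap, and the fitted difference was -1.09 (SE 0.30, adjusted p = 0.0162). Only 1 of the 4 Ttpa-/- arrays was well above background, so Tlr1 was tested there through the wild-type arrays alone and the size of the difference is uncertain. In the cerebellum the wild-type arrays were at -4.40, -4.05, -4.54 and -4.69, all well above background, and the Ttpa-/- ones, as above, were not, so that Tlr1 was at least 1.25-fold lower (adjusted p = 0.00516). The cortex call was lost without replicate 2 of the wild-type (adjusted p = 0.0552) or replicate 3 of the Ttpa-/- mice (0.0637), while the cerebellum call held without each array in turn. With normexp the differences were -0.30 (adjusted p = 0.0712) and -0.32 (0.0520), and the methods' t-test with adjustment gave 0.0694 and 0.0769, so neither region was called by these.

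Tlr2 on the deficient diet lay at -1.0, -1.02, -1.43 and -1.35 in wild-type cortex, above all 4 Ttpa-/- arrays, with a difference of -0.75 (SE 0.22, adjusted p = 0.0245). The call was lost without replicate 1 or 2 of either group, with adjusted p of 0.0583 to 0.0837, and with median scaling (0.111), normexp (-0.53), the compared groups alone (0.0803) and the methods' t-test with adjustment (0.0597). Cd14 had its highest arrays in wild-type mice on the deficient diet, replicate 1 at 0.20 in the cortex and at -0.06 in the cerebellum. The difference between genotypes was -0.59 (adjusted p = 0.0489) in the cortex and -0.66 (adjusted p = 0.0258) in the cerebellum, with overlapping arrays in both. Without replicate 1 of the wild-type mice the differences were -0.36 (adjusted p = 0.261) and -0.44 (0.173). The cortex call was also lost without replicate 2 of the wild-type or any Ttpa-/- array, and that in the cerebellum without replicate 2 of the wild-type (0.0596) or replicate 3 of the Ttpa-/- mice (0.105). In both regions it was lost with median scaling, normexp, the compared groups alone and the methods' t-test, and in the cortex also with quantile normalization (0.0560), no filter on dim probes (0.0839) and array weights (-0.52).

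In the same comparison Tlr13 in the cortex differed by -0.34 (adjusted p = 0.0229) and Tlr9 in the cerebellum by 0.35 (adjusted p = 0.0265), both under the fold limit and without overlap. In the cortex 6 of 9 tested genes were without overlap, against 17.2% of all tested probes, and in the cerebellum 2 of 8, against 13.5%. In the cortex Tlr1, Tlr2, Tlr4 and Tlr13 were lower in Ttpa-/- mice, while Tlr3 and Tlr9 were higher. Tlr3 averaged -3.22 in Ttpa-/- and -3.52 in wild-type cortex, and Tlr9 averaged 2.42 and 2.17, and neither was called. This comparison and the one for oxidative stress share the same Ttpa-/- arrays, so their values are given side by side and not as repeats of each other. In the cortex, where Tlr2 was called lower for oxidative stress, the summed astrocyte markers were 70.1 to 75.9 in wild-type and 54.7 to 67.6 in Ttpa-/- mice, and those of T and B cells 1.60 to 1.77 and 1.94 to 2.21, without overlap in either list and with 0 of 6 and 0 of 3 tested markers called. The summed endothelial markers, 17.4 to 19.5 in wild-type and 13.9 to 17.1 in Ttpa-/- mice, did not overlap either. Of the microglial markers 0 of 12 in the cortex were called for oxidative stress and 1 of 12 (Olfml3, lower) between genotypes on the deficient diet. In the cerebellum 2 of 12 (Aif1 and Fcrls) and 3 of 8 general myeloid markers were lower for oxidative stress, with myeloid sums of 109 to 123 in wild-type and 89.8 to 116 in Ttpa-/- mice. Between genotypes on the deficient diet there, Ptprc was lower and P2ry12 higher. The part of these cell types in the lower Tlr1 and Tlr2 was not tested.

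**Figure D5:**
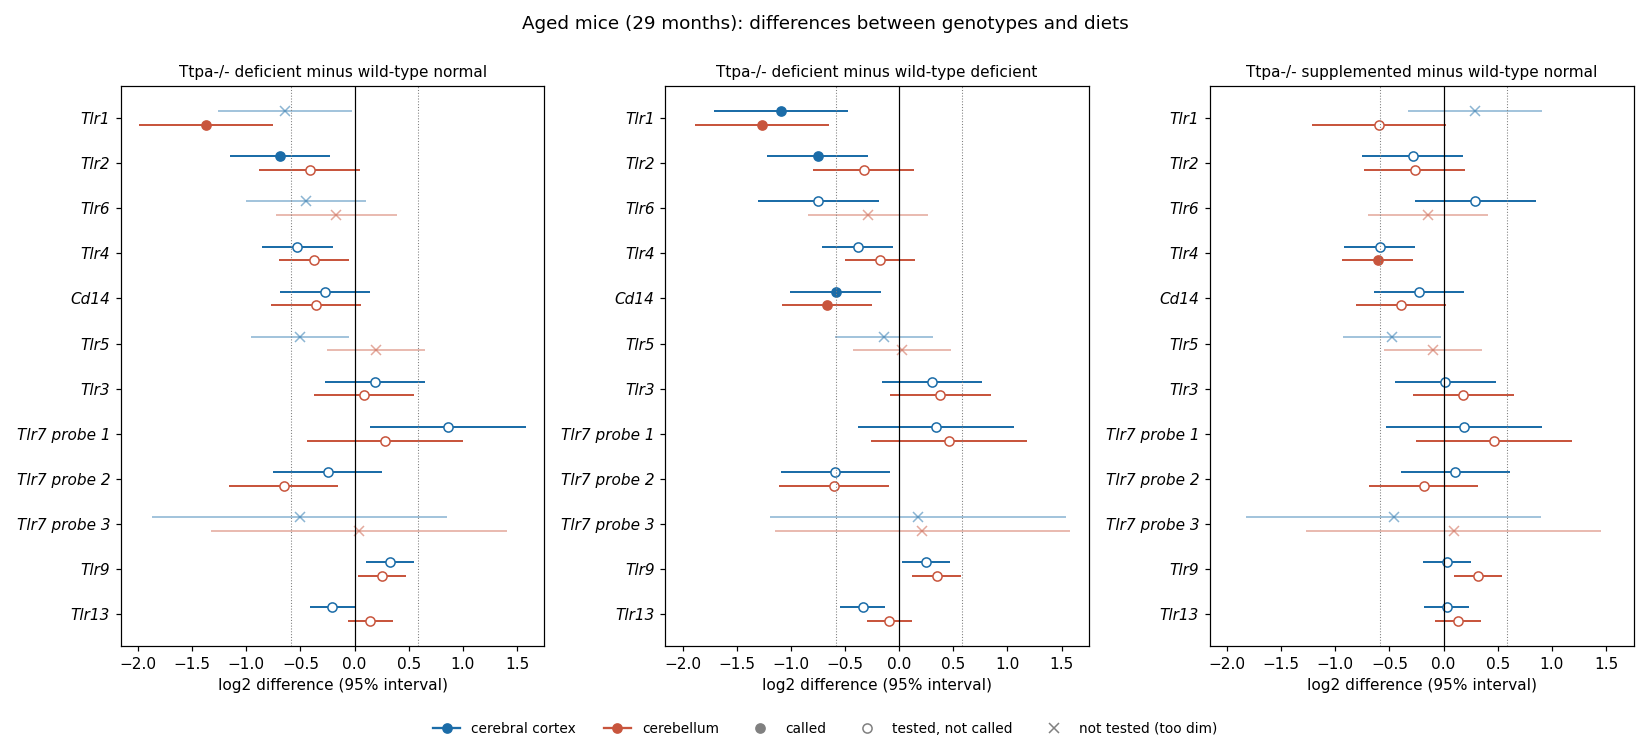
Difference in log2 level between aged Ttpa-/- and aged wild-type mice for each probe, with 95% intervals, in 3 comparisons and both regions. Filled points were called, open points were tested and not called, crosses were too dim for a test, and dotted lines mark 1.5-fold. Tlr1 in the cerebellum stood at -1.37 and -1.27 in the comparisons with deficient Ttpa-/- mice and at -0.59 with supplemented ones.

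Diet on its own gave no call among these genes, and for so few genes such counts are close to the shares over all probes. Wild-type mice on the deficient diet against the normal diet had 0 of 9 tested genes called in the cortex (0.223% of probes in either direction) and 0 of 8 in the cerebellum (1.27%). With the same fold limit, unadjusted limma p and the methods' t-test gave 0 calls as well. Ttpa-/- mice on the deficient against the supplemented diet had 0 of 8 called in the cortex (3.31%) and 0 of 7 in the cerebellum (0.343%). With unadjusted limma p 1 gene passed in the cortex, Tlr6 (-0.74, adjusted p = 0.0607), and 0 in the cerebellum. Tlr9 in the cortex had a difference of 0.30 (adjusted p = 0.0523) and no overlap, and 19% of tested probes had none either.

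Tlr1 in Ttpa-/- mice on the supplemented diet lay at -3.70, -4.24, -4.21 and -3.85 in the cortex and at -4.72, -5.11, -4.92 and -4.91 in the cerebellum. These arrays were all above those of Ttpa-/- mice on the deficient diet in the same region, but too few were well above background for a test. Their mean was -4.00 ± 0.27 (SD, n = 4) in the cortex against -4.93 ± 0.26, and -4.91 ± 0.16 against -5.69 ± 0.44 in the cerebellum.

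Ttpa-/- mice on the supplemented diet were also compared with normally fed wild-type mice of the same age, a difference in both genotype and diet. In the cerebellum Tlr4 was lower, at -3.0, -3.21, -3.12 and -3.18 against the aged wild-type values given above, 1 of 8 tested genes where 1.57% of probes were called lower. All 4 arrays were below all wild-type ones, with a difference of -0.61 (SE 0.15, adjusted p = 0.00788), 1.53-fold. Over all tested probes, 21.3% were without overlap there. Close to the fold limit, the call was lost without replicate 1 (-0.57) or 4 (-0.58) of the wild-type or replicate 2 (-0.58) of the Ttpa-/- mice, and with normexp (-0.37) or array weights (-0.58). In the cortex the difference of Tlr4 was nearly the same, -0.59, with an adjusted p of 0.111, and 0 of 8 genes were called (0.0920% of probes in either direction); by unadjusted p, in limma or the methods' t-test, Tlr4 was the 1 call.

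Of the other pathway genes, 7 of 53 were called lower for oxidative stress in the cortex and 0 higher, where 1.60% and 3.14% of probes were. They were Ccl3 (-1.07), Ccl4 (-0.89), Ccl5 (-1.08), Cxcl10 (-0.94), Ly86 (-0.61), Map3k7 (-0.62), a kinase downstream of Myd88, and Hmgb1 (-0.87), a nuclear protein that can act as a ligand. In the cerebellum 0 of 53 were called, where 4.46% of probes were in either direction. Between genotypes on the deficient diet 3 of 53 were lower in the cortex (Ccl5, -1.20, Hmgb1, -0.77, and the kinase Ripk1, -0.59), where 1.53% of probes were. With the compared groups alone, only 1 of all 29061 probes tested there was called lower. In the cerebellum 2 of 55 were lower, where 1.92% of probes were. They were Ptgs2 (-1.55) and Il1rl1, which was well above background on 0 of 4 Ttpa-/- arrays and at least 1.26-fold lower. The deficient diet in wild-type cerebellum had Ptgs2 higher by 1.20 (adjusted p = 0.0441).

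Across all 10 groups, Tlr2 was highest in the aged wild-type cerebellum on the normal diet (-0.51 ± 0.16) and lowest in the young cerebellum (-2.94 ± 0.33). When the groups were put in order of their means, the arrays of neighbours overlapped for 8 of 9 pairs, and the gap lay between the lowest aged group, Ttpa-/- cortex on the deficient diet (-1.95 ± 0.14), and the young cortex (-2.83 ± 0.07). Cd14 was highest in wild-type cortex on the deficient diet (-0.47 ± 0.49), with its gap between the young cortex (-1.64 ± 0.28) and the young cerebellum (-2.31 ± 0.11). Tlr4 ran from -2.52 ± 0.14 in the aged wild-type cerebellum to -4.36 ± 0.14 in the young cortex. Its gap lay between wild-type cortex on the deficient diet (-3.33 ± 0.12) and Ttpa-/- cortex on the same diet (-3.71 ± 0.19). The young cerebellum stood apart below all groups for Tlr6 (-6.61 ± 0.35) and for probe 2 of Tlr7 (-4.37 ± 0.24). For Tlr13 the gap lay between the aged wild-type cortex on the normal diet (-0.03 ± 0.07) and the Ttpa-/- cortex on the deficient diet (-0.23 ± 0.14). For Tlr1, Tlr3, Tlr5, Tlr9 and probes 1 and 3 of Tlr7 every pair of neighbours overlapped.

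The genes whose levels followed each receptor most closely were found by Pearson's r over the 40 arrays with the mean of each region subtracted, among 19142 probes. These arrays share groups, so r is a description and includes the difference between young and aged mice. Tlr2 was followed by Bcl2a1d, an apoptosis inhibitor of blood cells (0.97), Cd48 (0.96) and the complement component C3 (0.96), and Tlr4 by Lyz1 (0.89), Cd48 (0.89) and Timp1 (0.88). For Cd14 these were Plaur (0.94), Xdh (0.92) and Osmr (0.92), and for Tlr13 Xdh (0.92), Ahnak (0.91) and Csf1 (0.91). Probe 2 of Tlr7 was followed by the Fc receptors Fcgr2b (0.95) and Fcgr3 (0.93) and by Tnfrsf1a (0.93), and probe 1 by Gpr157 (0.93), Wfdc13 (0.92) and Tas2r113 (0.92). Probes 1 and 2 of Tlr7 correlated with each other at 0.41, and probe 2 correlated with Tlr2 at 0.89. Probe 1 correlated with Tlr9 at 0.80, while Tlr9 correlated with Tlr2 at 0.05 and with probe 2 of Tlr7 at 0.08. Tlr9 was followed by Arhgdib, Igf1 and Iqcd (0.94 each) and Tlr3 by Tmsb15b1 (0.68), Plekhm3 (0.67) and Ncl (0.65).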

How the data were processed

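The scanner's spot tables, 1 for each array, are deposited as Agilent Feature Extraction wrote them (10.7.3.1 per the file headers, 10.1.1.1 in the submitters' processing notes), with positions on mm9. Their processed signal is an intensity that the software had already corrected for background and for trends across the array; the authors deposited it before any normalization between arrays. The deposited mean signal and local background, also intensities, served the normexp alternative, and the deposited flags are 0 or 1. The normexp alternative used an offset of 50. A second deposited table by the authors holds log2 values. Set against the spot tables, these equal (median absolute difference 0.000915) the log2 intensity relative to the 75th percentile, with the mean of each probe removed, which the sources used here do not state. The study's methods name global normalization and a fold change over 1.5.

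Spots flagged as non-uniform or as outliers (95 to 148 an array) were left out, the mean was taken over replicate spots, and log2 intensities were scaled to the array's 75th percentile. Of the spots of a probe, at least 50% had to be well above background. No probe value was saturated. limma 3.58.1 in R 4.3.3 was fitted with all 40 arrays and 1 coefficient a group, and Benjamini-Hochberg adjustment covered all probes tested in a comparison. The model was run on simulated data with independent noise around group means. These had no slide effect, so that check cannot speak to comparisons across slides. The brightest probe (highest mean over the arrays) stood for a gene. At-least folds compare the bright group's mean with the lowest signal well above background. Pathway and marker lists were set by name, and likeness genes are the 3 with the highest r among probes well above background on at least 36 arrays. The genes and the lists were chosen with earlier results of these data known. Replicate numbers name arrays and no source ties them to a shared litter or day; same-numbered arrays deviated together, with every correlation over 0.1, in 1 of 14 comparisons (deficient against supplemented diet in Ttpa-/- cortex, lowest 0.10). There a fit with the replicate number as a block gave 0 calls, as without it. Promoters were read for 7 of the 10 genes from RefSeq, without Tlr4, Tlr7 and Cd14. The precision is limited by the 4 arrays in a group. As a check of sex, since Tlr7 and Tlr13 lie on the X chromosome, Xist was well above background on 40 of 40 arrays and Ddx3y, Eif2s3y, Uty and Kdm5d on 0.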

Additional observations from a re-analysis of the deposited data

Results flagged for a closer look

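In 3 of 82 groups of 4 arrays tested over the probes (3.66%), an outermost array stood apart by Dixon's ratio, the gap to its neighbour over the whole range. Chance gives such a flag in about 1 in 20 groups. Replicate 1 of Ttpa-/- cortex on the supplemented diet had the highest Tlr2 of its group, -0.71 against -1.73 for the next (ratio 0.836). Replicate 3 of the young wild-type cortex had the lowest value of probe 1 of Tlr7, -0.53 against 0.92 for the next (ratio 0.927). Replicate 1 of Ttpa-/- cortex on the deficient diet had the lowest Tlr13, -0.45 against -0.17 for the next (ratio 0.969). The difference with age in probe 2 of Tlr7 was larger in the cerebellum than in the cortex by 1.60 on the log2 scale (adjusted p = 0.00814 as an interaction in limma), which was lost with median scaling (0.0661) and normexp (0.71, adjusted p = 0.118); 2 of the 4 young cerebellum arrays were not well above background. The same interaction in probe 1 was 0.45 with an adjusted p of 0.853.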

How the results depend on the processing

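Counts of called genes of the 10 were recomputed under each alternative. Without each array in turn they ranged, in the cortex, from 3 to 3 for aging, 0 to 2 for oxidative stress, 0 to 0 for the deficient diet in wild-type mice, 0 to 0 for supplemented Ttpa-/- against wild-type mice, 0 to 1 for diet in Ttpa-/- mice and 1 to 3 for genotype on the deficient diet. In the cerebellum the ranges were 4 to 5, 1 to 1, 0 to 0, 0 to 1, 0 to 0 and 1 to 2 in the same order. They were 1 to 3 between regions at 2 months, 1 to 3 at 29 months and 0 to 1 for aging by region.

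Oxidative stress in the cortex gave 0 with median scaling, normexp, the compared groups alone and the adjusted methods' t-test. It gave 2 with array weights (Tlr7 added, higher), 2 with unadjusted limma p and 3 by adjusted p alone. Normexp gave 0 for oxidative stress in the cerebellum, 0 for supplemented Ttpa-/- cerebellum, 0 and 0 for genotype in cortex and cerebellum, and 1 for the regions at each age. Its offset of 50 shrinks the differences of dim probes, so a call lost there does not decide the matter for them. Median scaling gave 1 and 1 for genotype in cortex and cerebellum, the compared groups alone 0 and 1, and the adjusted methods' t-test 0 and 0, with 1 (Tlr4) for aging in the cortex and 0 for oxidative stress in the cerebellum. Supplemented Ttpa-/- cerebellum gave 0 with array weights and 2 by adjusted p alone, and 2 by the methods' t-test without adjustment. That unadjusted t-test gave 1 for supplemented Ttpa-/- cortex, 1 for genotype in the cerebellum and 2 for aging by region, and unadjusted limma p gave 1 for supplemented Ttpa-/- cortex, 1 for diet in Ttpa-/- cortex and 2 for aging by region. Without a filter on dim probes the regions at 2 months gave 5, and aging by region gave 1 (Tlr6), as it did with array weights (Tlr1) and with any probe of the gene (Tlr7). Quantile normalization and the authors' log2 table moved no count by over 1.5 times. With the replicate number as a block, the count for oxidative stress in the cortex was 2 (Tlr2 lower and Tlr7 higher), and no other count moved by over 1.5 times. The numbers were not shown to pair the arrays. Slide as a block was not run, because each group lay on 1 slide and the block could not be fitted.

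Some differences that had not passed the test changed sign: probe 1 of Tlr7 with age in the cortex (7e-04 by quantile normalization), Tlr9 (0.0115 by quantile) and Tlr13 (0.0053 by normexp) for aging by region, Tlr4 between regions at 2 months (0.34, and -0.15 by normexp) and Tlr3 (0.25, and -0.17 by normexp) and Tlr1 (0.0797 by array weights) at 29 months. Without each array in turn, sign changes occurred within -0.38 to 0.15 for probe 1 of Tlr7, -0.11 to 0.035 for Tlr3 and -0.10 to 0.0037 for Tlr9 with age in the cortex. The others were -0.12 to 0.0147 for Tlr9 with age in the cerebellum, -0.0809 to 0.059 for Tlr9 and -0.0747 to 0.035 for Tlr13 for aging by region, -0.23 to 0.0279 for Tlr2 between regions at 2 months, and -0.20 to 0.13 for Tlr1 and -0.0071 to 0.12 for Tlr9 at 29 months. The cause of these moves was not tested. Median scaling moved the median of all tested probes by over 0.1 for the deficient diet in wild-type cerebellum (to -0.19), genotype in the cerebellum (to 0.17) and diet in Ttpa-/- cortex (to 0.0902). Pathway counts, added as alternatives after seeing the data, were 9 to 10 in the cortex and 11 to 14 in the cerebellum without each array, and otherwise moved by over 1.5 times to 6 with the compared groups alone and 6 with the adjusted t-test in the cortex, and to 19 by adjusted p alone in the cerebellum. The dimness of Tlr1, Tlr6 and Tlr4 in young mice limits their folds.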

Other observations

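Tlr12, a receptor for profilin that was placed among the other genes of the pathway, was tested in both regions and not called with age, with a fitted difference of 0.86 in the cortex and 0.89 in the cerebellum. Its mean level was -2.07 ± 0.25 in the young and -1.21 ± 0.41 in the aged wild-type cortex, and -3.75 ± 0.16 and -2.86 ± 0.25 in the cerebellum (SD, n = 4).

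Markers of monocytes and neutrophils were unevenly spread over single arrays. Their summed level was 90.3 on replicate 2 of wild-type cerebellum on the deficient diet and 52.9 on replicate 1 of the aged wild-type cerebellum on the normal diet, while the other arrays of those groups lay between 2.14 and 14.9. On these 2 arrays Tlr2 was at -0.95 and -0.60, and Cd14 at -0.66 and -1.07, each within the range of the other arrays of its group except Tlr2 on the first, the lowest of its group.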
